A study of Mus musculus with 16 samples.

Results

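Trophoblast lineage genes are the genes that set aside the placental lineage from the embryo or mark its cell types, and 10 of them were followed here: Cdx2, Tead4, Gata2, Tfap2c, Ets2, Elf5, Plet1, Hand1, Gcm1 and Tpbpa. They were found by gene symbol, 10 of 10 among the 55471 genes with CpG methylation and 9 of 10 among the 43984 genes with histone marks. Plet1 stood in the histone data under its older symbol 1600029D21Rik and was matched by its Ensembl identifier, ENSMUSG00000032068.

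The measurements came from clonal induced pluripotent stem cell (iPSC) lines of reprogrammable mice, made from proximal tubule cells (PTC11 and PTC12) or from tail tip fibroblasts (TTF1 and TTF4) of littermates, to ask whether iPSCs keep epigenetic marks of the cell they came from. Mice of both origins carried SLC34a1-GCE, a GFP and tamoxifen-activated Cre fusion under a proximal tubule promoter, together with tdTomato, rtTAROSA (neo-in) and OKMS-250, the doxycycline-inducible Oct4, Klf4, c-Myc and Sox2. Both tissues were taken from adult mice fed tamoxifen, PTC were sorted for GFP and tdTomato, and TTF received Cre from an episomal plasmid. Both were reprogrammed with doxycycline and LIF, were maintained without doxycycline, and were grown on mouse embryonic fibroblast feeders. Each line had 1 sample for CpG methylation, 1 library for H3K4me3 and 1 for H3K36me3, so the line was the replicate (n = 2 per origin). Both PTC libraries of H3K27me3 carried the name of line PTC11.

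Of 12 pluripotency genes, 11 had H3K4me3 in PTC11, PTC12 and TTF1 and 9 in TTF4, where Zfp42 and Dppa4 had none. Esrrb had none in any line. Of 11 fibroblast genes, which feeder cells also express, 2 had H3K4me3 in PTC11 and 7 in PTC12, and 7 in TTF1 and 6 in TTF4, with summed levels of 5.42, 26.3, 26.1 and 20.5 RPKM. Over all genes the share with H3K4me3 moved the same way between PTC11 and PTC12, at 33.9% and 44.4%, and was 43.2% in TTF1 and 34.4% in TTF4. Of 9 proximal tubule genes, 2 had H3K4me3 in PTC11 and 4 in PTC12, and 2 in TTF1 and 2 in TTF4, and of 7 primitive endoderm genes 3, 6, 5 and 5. The part of other cells in the values at trophoblast genes was not tested. TTF4 had the highest methylation of the lines, with a median fraction of 0.770 over all genes against 0.385 in PTC11, 0.539 in PTC12 and 0.374 in TTF1.

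In the early mouse embryo the outer cells become trophectoderm, the source of the placenta, and the inner cells become the lineage from which embryonic stem cells and iPSCs are modelled. Tead4 with its co-activator Yap1 switches on Cdx2 in the outer cells, and Gata, Tfap2, Ets and Elf family factors then hold trophoblast stem cells in their state. Elf5 is the best known epigenetic gate between these lineages: its promoter is described as methylated and silent in embryo-derived cells and unmethylated in trophoblast stem cells. H3K4me3 marks the promoters of active and of many poised genes, and H3K36me3 is laid down over transcribed gene bodies.

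On mm10, Tead4 lies on chr6:128224288-128300823 on the minus strand, Cdx2 on chr5:147300805-147307270 (minus) and Gata2 on chr6:88193891-88207032 (plus). Tfap2c lies on chr2:172549593-172558622 (plus), Ets2 on chr16:95702075-95721051 (plus) and Elf5 on chr2:103411688-103450989 (plus). Plet1 is on chr9:50494525-50505482 (plus), Gcm1 on chr9:78051924-78065624 (plus), Hand1 on chr11:57828705-57832818 (minus) and Tpbpa on chr13:60938492-60941984 (minus). All are annotated as protein coding, and no other gene of the methylation data had the same values in all lines or a start within 2000 bp of theirs.

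The deposited fraction of methylated CpGs covers 1000 bp to each side of the start, and the number of CpGs there differed widely between these genes. The 250 bases before the start, 5′ to 3′ in the direction of transcription, are printed from the GRCm38 (mm10) reference genome for 3 of them, with every CpG in capitals. Elf5 (chr2:103411438-103411687, plus strand) is shown as the methylation-gated gene, with 2 CpGs. Gata2 (chr6:88193641-88193890, plus) has 22 CpGs, the most among the 7 of 10 genes with a RefSeq promoter entry; Hand1, Tfap2c and Tead4 had none. Plet1 (chr9:50494275-50494524, plus), with 3, was added after its values were seen because its methylation differed most between TTF4 and the other lines. None of these stretches overlaps an annotated exon.
Elf5: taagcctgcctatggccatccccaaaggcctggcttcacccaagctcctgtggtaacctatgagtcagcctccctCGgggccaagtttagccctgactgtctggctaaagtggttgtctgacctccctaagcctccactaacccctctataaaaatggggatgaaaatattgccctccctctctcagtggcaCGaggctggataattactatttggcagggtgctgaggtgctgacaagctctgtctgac
Gata2: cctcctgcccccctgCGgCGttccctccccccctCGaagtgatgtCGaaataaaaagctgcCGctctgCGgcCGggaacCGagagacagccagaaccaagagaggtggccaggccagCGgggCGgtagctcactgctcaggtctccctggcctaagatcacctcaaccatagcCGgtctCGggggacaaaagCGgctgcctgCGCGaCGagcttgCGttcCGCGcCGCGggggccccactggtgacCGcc
Plet1: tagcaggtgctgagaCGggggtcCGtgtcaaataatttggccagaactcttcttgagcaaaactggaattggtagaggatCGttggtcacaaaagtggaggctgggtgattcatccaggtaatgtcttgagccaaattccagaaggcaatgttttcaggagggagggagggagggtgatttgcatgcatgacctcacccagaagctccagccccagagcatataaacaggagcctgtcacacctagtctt

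Within 1000 bp of the start the reference holds 129 CpGs at Tfap2c, 128 at Ets2, 119 at Gata2, 118 at Cdx2 and 116 at Tead4, against a median of 25 over all genes. Hand1 has 66, Plet1 34, Gcm1 28, Elf5 22 and Tpbpa 11. The 5 CpG-dense starts belong to transcription factors of early trophoblast and of many other tissues, and the sparsest to Tpbpa, a placenta-specific secreted protein. Of all genes, 8.37% have at least the 22 CpGs of Gata2 in the 250 bases before the start, and 70.4% have at least the 2 of Elf5.

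Methylation followed this order in broad terms. The mean fraction over the 4 lines was 0.0362 at Cdx2, 0.0464 at Tfap2c, 0.108 at Gata2, 0.119 at Tead4 and 0.189 at Ets2, then 0.306 at Hand1 and 0.380 at Plet1, and 0.543 at Gcm1, 0.701 at Tpbpa and 0.708 at Elf5. The ranges over lines of each neighbouring pair in this order overlapped. Genes with 120 to 160 CpGs had a median of 0.0767 over the lines and genes with 20 to 30 CpGs had 0.632. The plot of CpG number against methylation shows the trophoblast lineage genes beside these medians.

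**Figure D1:**
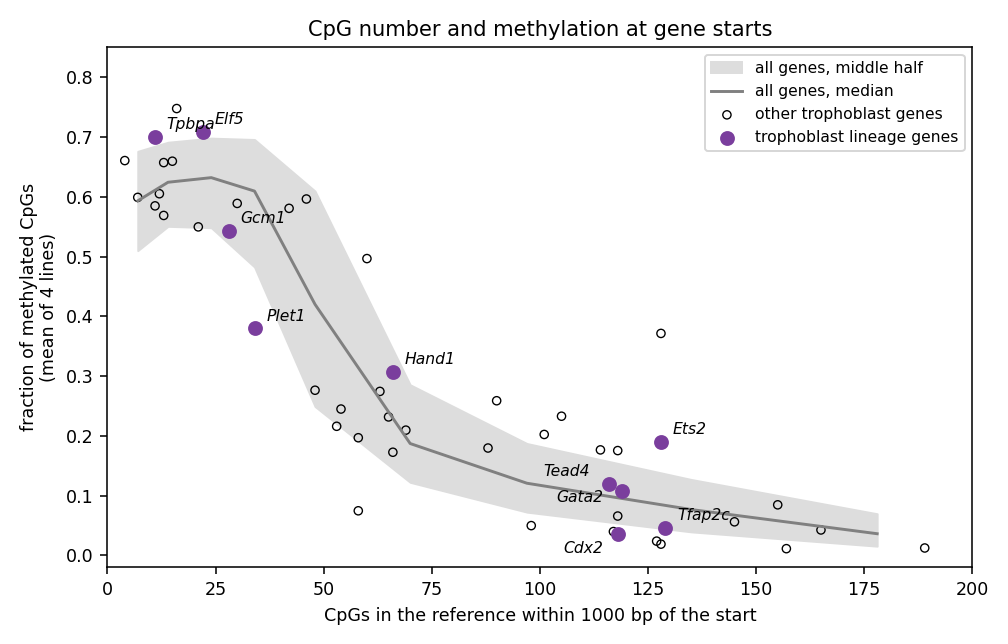
Mean fraction of methylated CpGs over the 4 lines (y axis) against the number of CpGs in the reference within 1000 bp of the start (x axis), for the 10 trophoblast lineage genes (purple), other trophoblast genes (open circles) and the median and interquartile range of all genes in bins of CpG number (grey). Elf5 (22 CpGs, 0.708) and Tpbpa (11, 0.701) sit at the top left, and Cdx2 (118, 0.0362) and Tfap2c (129, 0.0464) at the bottom right.

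Tead4, the factor that starts the trophectoderm programme, had a fraction of 0.0881 in PTC11 and 0.112 in PTC12, and 0.0639 in TTF1 and 0.213 in TTF4. TTF4 was the highest line, as it was over all genes. Cdx2, the homeobox factor that Tead4 switches on, had 0.0480 in PTC11 and 0.0451 in PTC12, and 0.0453 in TTF1 and 0.00625 in TTF4. Here TTF4 was the lowest line, at percentile 1.05 of its own genes, although it was the most methylated line over all genes. Of 50657 genes, 1.33% had TTF4 lowest by at least the 0.0388 that separated it from the next line at Cdx2. This share was computed after the values were seen, as were the others of this kind below. The fractions of Cdx2 were low in every line and their depth is unknown. A low TTF4 was not particular to Cdx2. Among the stem cell regulators listed below, Tfap2a had 0.145 in TTF4 against 0.270 in TTF1, the next lowest line. Gata3 had 0.198 in TTF4 against 0.282 in TTF1. TTF4 was the highest line at 5 of the 9 genes of that list.

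Gata2, a zinc finger factor of trophoblast and of blood precursors, had fractions of 0.0742 in PTC11 and 0.169 in PTC12, and 0.140 in TTF1 and 0.0498 in TTF4, with TTF4 again lowest. Tfap2c, an AP-2 factor of trophoblast and germ cells, had 0.0297 in PTC11 and 0.0293 in PTC12, and 0.0830 in TTF1 and 0.0437 in TTF4. Cdx2, Tfap2c and Gata2 stayed under 0.2 in every line, 3 of 10 genes against 12.4% of all genes with a value in the 4 lines. Under 0.1 there were 2 (5.42% of all genes), Cdx2 and Tfap2c, and under 0.3 there were 4 (19.3%). Ets2, an ETS factor needed for trophoblast stem cell renewal, had 0.0856 in PTC11 and 0.187 in PTC12, and 0.0957 in TTF1 and 0.388 in TTF4. The fraction of Ets2 in TTF4 was the highest among the 5 CpG-dense genes, and the median of genes with 120 to 160 CpGs in that line was 0.134.

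Elf5 was the most methylated of the 10 genes on average, and the lines did not agree on it. It had a fraction of 0.311 in PTC11 and 0.831 in PTC12, and 0.873 in TTF1 and 0.818 in TTF4. PTC12, TTF1 and TTF4 lay close together and PTC11 stood 0.507 below the lowest of them, so the origins overlapped through PTC12. Of 50657 genes, 0.347% had PTC11 lowest by at least this gap. In the ranking of each line Elf5 stood at percentile 41.3 in PTC11 and 90.5 in PTC12, and 96.7 in TTF1 and 58.7 in TTF4. Among protein-coding genes alone the percentiles were 67.6 in PTC11 and 96.0 in PTC12, and 98.5 in TTF1 and 78.2 in TTF4, so the rank in PTC11 and TTF4 moved with the genes it was set against. Genes with 20 to 30 CpGs had medians of 0.495 in PTC11 and 0.661 in PTC12, and 0.511 in TTF1 and 0.852 in TTF4, and Elf5 lay below the median of PTC11 and TTF4 and above that of PTC12 and TTF1. As PTC and TTF means the fraction was 0.571 ± 0.368 (SD, n = 2) and 0.845 ± 0.0390 (SD, n = 2).

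The methylation window covers only the first annotated start of Elf5. A further protein-coding transcript starts 12374 bp downstream at chr2:103424062, with 45 CpGs within 1000 bp and 8 in the 250 bases before it, and its methylation was not analysed here. Which of these starts the described methylation gate belongs to was not examined. Neighbouring genes did not show the gap: Ehf, an ETS gene 108410 bp away, had 0.453 in PTC11 and 0.587 in PTC12, and 0.690 in TTF1 and 0.699 in TTF4. Cat, the catalase gene 73472 bp to the other side, had 0.0920 in PTC11 and 0.0609 in PTC12, and 0.110 in TTF1 and 0.0606 in TTF4. Neither flanking gene had PTC11 apart from the other lines by as much as Elf5 did.

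Plet1, a surface protein of trophoblast progenitors and of some epithelial progenitors, had a fraction of 0.201 in PTC11 and 0.282 in PTC12, and 0.201 in TTF1 and 0.835 in TTF4. TTF4 stood 0.552 above the next line, at percentile 62.4 of its genes, and the other lines lay between percentiles 30.3 and 32.2 of theirs. Among protein-coding genes these were 80.4 in TTF4 and 55.8 to 56.6 in the other lines. The TTF mean of 0.518 ± 0.448 (SD, n = 2) described neither TTF line. Of 50657 genes, 1.9% had TTF4 highest by at least this gap. The nearest gene, Pts, 34199 bp away, had 0.0759 in PTC11 and 0.258 in PTC12, and 0.126 in TTF1 and 0.393 in TTF4. Genes with 30 to 40 CpGs had medians of 0.461 in PTC11 and 0.629 in PTC12, and 0.481 in TTF1 and 0.851 in TTF4, so Plet1 was below the median in every line, nearly level with it in TTF4 and by over 0.2 in the others.

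Hand1, a factor of giant cells and of the heart, had 0.263 in PTC11 and 0.339 in PTC12, and 0.175 in TTF1 and 0.449 in TTF4. Gcm1, which drives formation of syncytiotrophoblast in the labyrinth, had 0.283 in PTC11 and 0.577 in PTC12, and 0.498 in TTF1 and 0.812 in TTF4. Both had their highest value in TTF4, and for Gcm1 the gap to the next line, 0.234, was met or exceeded at 24% of genes. Tpbpa, the marker of spongiotrophoblast, had 0.760 in PTC11 and 0.740 in PTC12, and 0.304 in TTF1 and 1.00 in TTF4. TTF1 was low at Tpbpa and TTF4 fully methylated, and the PTC lines lay between them. With 11 CpGs around this start and no coverage in the data, the precision of these fractions is unknown.

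Across the 10 genes, 6 had their highest fraction in TTF4 against 75.4% of all genes, and 4 had their lowest in PTC11 against 42%. The range across lines was at least 0.5 at 4 of 10 genes, Elf5, Plet1, Gcm1 and Tpbpa, against 29.3% of all genes. The line that stood apart differed between them, PTC11 at Elf5, TTF4 at Plet1 and TTF1 at Tpbpa on the low side. At Gcm1 no single line stood apart, with TTF4 (0.812) above and PTC11 (0.283) below PTC12 (0.577) and TTF1 (0.498). A fraction averages over the cells of a culture and over the CpGs of the window, which cannot be told apart here.

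**Figure D2:**
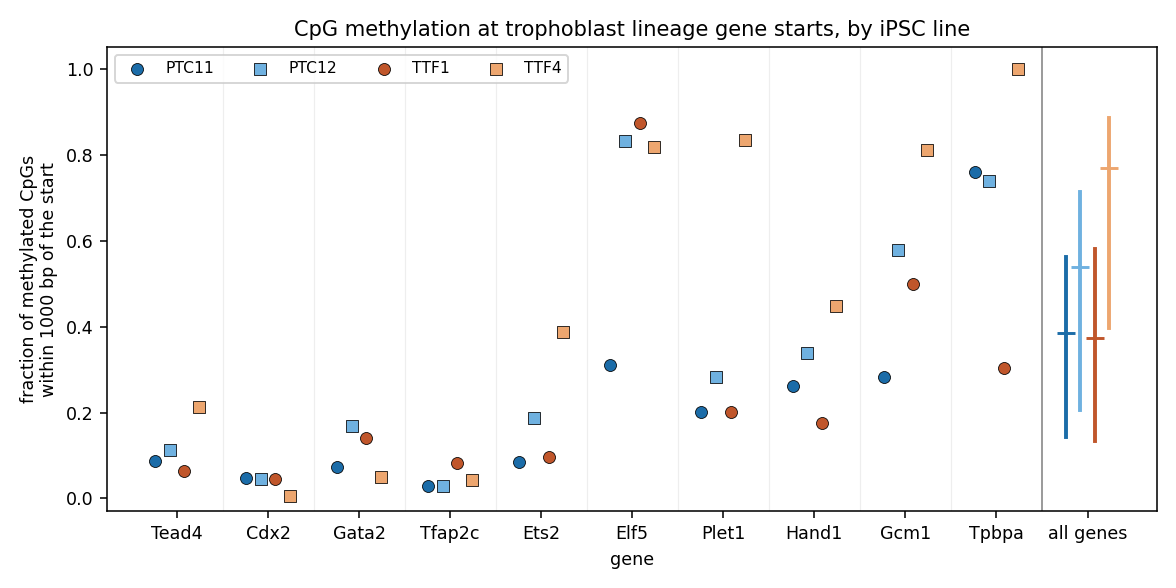
Fraction of methylated CpGs within 1000 bp of the start (y axis) of each trophoblast lineage gene (x axis) in PTC11, PTC12, TTF1 and TTF4, with the median (dash) and interquartile range (bar) of all genes in each line at the right. Elf5 is low in PTC11 alone (0.311 against 0.818 to 0.873) and Plet1 high in TTF4 alone (0.835 against 0.201 to 0.282), while Cdx2 and Tfap2c stay under 0.1 in every line.

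Which of these genes carried H3K4me3 was asked next. The unit is RPKM above input averaged over the peaks from 2 kb before to 3 kb after the start, and a gene without a kept peak has no value. Cdx2, Tead4, Tfap2c and Ets2 had H3K4me3 in all 4 lines, 4 of 10 genes against 30.8% of all genes and 53.1% of protein-coding genes. Elf5, Gcm1 and Tpbpa had none in any line, 3 of 10 against 50.5% of all genes. By line, 5 of the 10 genes had H3K4me3 in PTC11 and 6 in PTC12, and 7 in TTF1 and 5 in TTF4, and over all genes the shares were 33.9%, 44.4%, 43.2% and 34.4%.

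Ets2 had the highest H3K4me3 level, at 4.29 RPKM in PTC11 and 7.87 in PTC12, and 8.20 in TTF1 and 4.27 in TTF4. Tead4 had 3.24 RPKM in PTC11 and 7.53 in PTC12, and 7.18 in TTF1 and 3.58 in TTF4. PTC12 and TTF1 were the high lines at both genes, which placed 1 line of each origin on each side. Tfap2c had 3.59 RPKM in PTC11 and 4.47 in PTC12, and 5.84 in TTF1 and 2.78 in TTF4, with the same split. This order of lines, PTC11 and TTF4 below PTC12 and TTF1, held at 3 of 4 genes and at 81.4% of all genes with a value in every line.

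Cdx2 was the exception, with 4.04 RPKM in PTC11 and 3.20 in PTC12, and 3.83 in TTF1 and 3.40 in TTF4. Its H3K4me3 was above the median of PTC11 (percentile 70.3) and in the lower part of PTC12 (24.7), TTF1 (29.3) and TTF4 (36.6), while its methylation was low in all lines. Gata2 had no value in PTC11 and 4.25 RPKM in PTC12, 5.33 in TTF1 and 2.96 in TTF4. Hand1 had 2.97 RPKM in PTC11, 2.93 in PTC12 and 3.02 in TTF1 and no value in TTF4, the line with its highest methylation. The levels of Hand1 were in the lower part of the range, between percentiles 14.6 and 20.7.

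Plet1 had H3K4me3 in TTF1 alone, at 3.32 RPKM. PTC11 had the same fraction of methylated CpGs at Plet1 (0.201) as TTF1 and no H3K4me3 value. Over all genes, the median fraction with and without H3K4me3 was 0.0750 and 0.468 in PTC11, 0.146 and 0.655 in PTC12, 0.100 and 0.497 in TTF1, and 0.226 and 0.838 in TTF4. At Elf5 in PTC11 the fraction of 0.311 was below the lower quartile of genes without H3K4me3 in that line (0.329), and no H3K4me3 value was listed. In PTC12 and TTF1 the fraction of Elf5 was above the upper quartile of such genes, 0.761 and 0.644.

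H3K36me3 over the gene body was present in all 4 lines at 8 of the 10 genes, against 38% of all genes and 62.8% of protein-coding genes. Tpbpa had none in any line, 1 of 10 against 29.1% of all genes, and Plet1 had a value in PTC11 alone, at 1.37 RPKM. With at least 1 RPKM required, H3K36me3 was present in all lines at 7 of 10 genes (27.4% of all genes) and H3K4me3 at 4 (30.6%). By line, 9 genes had a value in PTC11 and 8 in each of PTC12, TTF1 and TTF4, beside 67%, 51.7%, 52.3% and 45.7% of all genes. Elf5 and Gcm1 thus had H3K36me3 in every line and H3K4me3 in none. Esrrb, Krt19 and Prl3d1 of the other trophoblast genes had the same combination. So had Cubn and Slc22a6 of the proximal tubule genes, Col3a1 and Dcn of the fibroblast genes, and Dab2 of the primitive endoderm genes. The share of all genes with this combination was not computed, so whether it is more frequent at the 10 genes is unknown. Values of H3K36me3 were low in PTC11 and TTF1 as a whole, and PTC11 and TTF1 lay below PTC12 and TTF4 at 7 of 8 genes against 93.6% of all genes.

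Elf5 had 1.44 RPKM of H3K36me3 in PTC11 and 3.09 in PTC12, and 0.923 in TTF1 and 3.73 in TTF4, below the median of each line (percentiles 35.2, 28.8, 27.6 and 41.8). Gcm1 had 1.67 RPKM in PTC11 and 3.22 in PTC12, and 1.23 in TTF1 and 1.97 in TTF4. At Gcm1, TTF4 fell to percentile 9.07 of its line, whereas TTF1 was at 55.2. Gata2 had 1.77 RPKM in PTC11 and 6.61 in PTC12, and 1.10 in TTF1 and 4.77 in TTF4, and in PTC12 it was at percentile 90.0.

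Tfap2c had 2.89 RPKM in PTC11 and 2.75 in PTC12, and 2.01 in TTF1 and 3.45 in TTF4, and was the exception to the order of lines. Within its own line it stood at percentile 97.6 in PTC11 and 94.9 in TTF1, but at 21.5 in PTC12 and 33.5 in TTF4. Hand1 had 2.51 RPKM in PTC11 and 4.61 in PTC12, and 2.11 in TTF1 and 4.32 in TTF4, with percentiles of 94.3 and 96.0 in PTC11 and TTF1 against 67.3 and 58.9 in PTC12 and TTF4. In PTC11 and TTF1 these were the highest ranks among the 10 genes.

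Cdx2 had 2.01 RPKM in PTC11 and 3.97 in PTC12, and 1.60 in TTF1 and 4.11 in TTF4. Ets2 had 1.98 RPKM in PTC11 and 3.55 in PTC12, and 1.54 in TTF1 and 4.76 in TTF4, and Tead4 had 1.70, 4.38, 1.34 and 3.81 in the same order. All 3 followed the order of the lines over the genome. H3K27me3, the mark of Polycomb repression, had no value at any of the 10 genes, but only 69 and 144 genes had one in the PTC11 libraries, 52 in TTF1 and 11 in TTF4, so its absence says little about them.

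**Figure D3:**
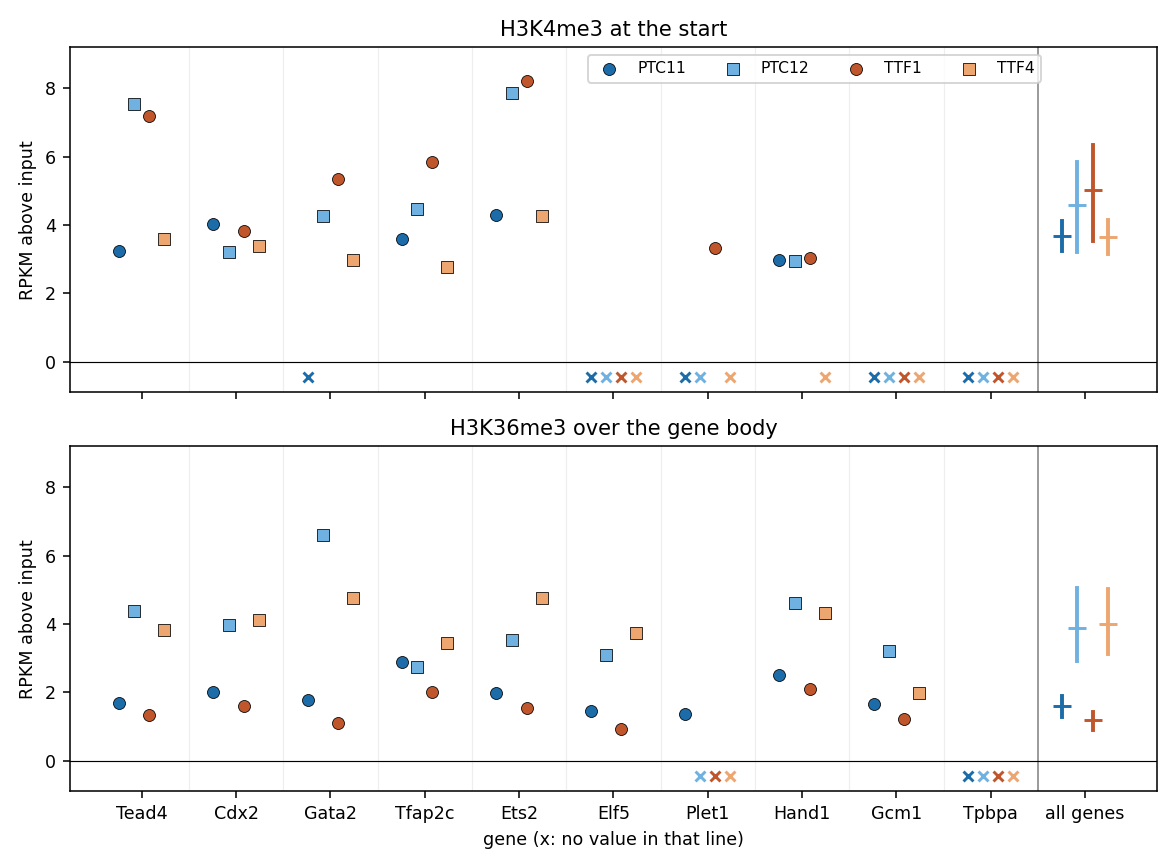
H3K4me3 (top) and H3K36me3 (bottom) in RPKM above input (y axis) at each trophoblast lineage gene (x axis) by line, with the median (dash) and interquartile range (bar) of all genes at the right and an x below 0 where a line had no value. Elf5 and Gcm1 have H3K36me3 in every line and H3K4me3 in none, and H3K36me3 is lower in PTC11 and TTF1 at each gene with 4 values but Tfap2c.

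Whether origin separated these genes was tested with limma, fitted over all genes with a value in the 4 lines, on log2(RPKM + 1) or on the fraction minus the mean of its line, with Benjamini-Hochberg adjustment. None of 4 genes in H3K4me3, 8 in H3K36me3 or 10 in CpG methylation passed an adjusted p of 0.05 in limma, and each adjusted p was 1. None had an unadjusted p under 0.05 either, against 134, 116 and 2392 of all genes in the same order. Over all genes 0.481% passed in H3K4me3 (66 of 13709), 0.112% in H3K36me3 (19 of 17039) and 0.00395% in methylation (2 of 50657).

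For H3K4me3, TTF minus PTC on the log2(RPKM + 1) scale was 0.03 at Tead4 (SE 0.49, 95% interval -0.93 to 0.98). Cdx2, Tfap2c and Ets2 differed by 0.0022, 0.02 and 0.02, with standard errors of 0.34, 0.39 and 0.57, and turned negative after quantile normalization between lines. Median differences were 0.02 over these genes and 0.04 over all genes. The intervals leave room for a change of about 1 log2 unit either way, so these values do not show that the origins were alike.

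For H3K36me3 the differences ran from -0.40 at Gata2 (SE 1.14, 95% interval -2.64 to 1.84) to 0.06 at Ets2 (SE 1.08, -2.07 to 2.18). Gcm1 had -0.38 and Tead4 -0.18. The median was -0.11, and -0.14 over all genes. In both histone marks the variance in limma was drawn from the trend over all genes, with practically no weight on each gene's own lines. Intervals of this width therefore reflect the spread between lines of the same origin over many genes, not the spread at each gene. Tfap2c had a standard error of 1.08 although its own lines lay between 2.01 and 3.45 RPKM.

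In centred methylation Plet1 had a difference of 0.189 (SE 0.148, 95% interval -0.107 to 0.485) and Elf5 of 0.187 (SE 0.152, -0.117 to 0.491), both higher in TTF. At Plet1 the difference came from TTF4 and at Elf5 from PTC11. Gcm1 had 0.138 and Ets2 0.0185. The lowest were Tpbpa at -0.185 (SE 0.151, -0.487 to 0.117), Gata2 at -0.114 and Cdx2 at -0.108. Hand1, Tfap2c and Tead4 had -0.0756, -0.0532 and -0.0485, which turned positive without centring. Without centring Tpbpa had -0.0980, Gata2 -0.0266 and Cdx2 -0.0208, so most of the centred difference at Gata2 and Cdx2 came from the line means. Plet1 had 0.276 and Elf5 0.274 without centring. The median was -0.0509 over the 10 genes and -0.0100 over all genes.

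Without PTC11 the difference at Elf5 became -0.0179, and without TTF4 that at Plet1 became 0.00741. The centred difference at Tpbpa was 0.0279 without TTF1. At each of these genes a single line therefore set the difference, and for Elf5 and Tpbpa its direction. Leaving out TTF1, so that TTF4 stood alone, gave Plet1 a difference of 0.371 and the smallest adjusted p of any of the 10 genes in any alternative, 0.15 in limma, with the lone line assumed to vary like the PTC lines.

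No trophoblast lineage gene had both TTF lines on one side of both PTC lines in H3K4me3 (0 of 4, against 5.04% of all genes above and 3.17% below) or in H3K36me3 (0 of 8, against 0.452% and 3.05%). In centred methylation, Ets2 and Gcm1 had both TTF lines above both PTC lines (2 of 10, against 15% of all genes) and Hand1 below (1 of 10, against 12.8%). In the fractions before centring the origins overlapped at each of these genes, so the separation rested on subtracting the line means. At Ets2 it was slight, with centred values of -0.283 in TTF1 and -0.286 in PTC11. The exact permutation test of 2 lines against 2 cannot fall below p = 0.33 (two-sided), so it cannot separate origins at any single gene. Per the study's methods the replicates in methylation were independent animals. The p-values of limma in the histone marks rest on a variance shared across genes, not on the spread of each gene's own lines. In methylation they rest mostly on the shared variance.

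**Figure D4:**
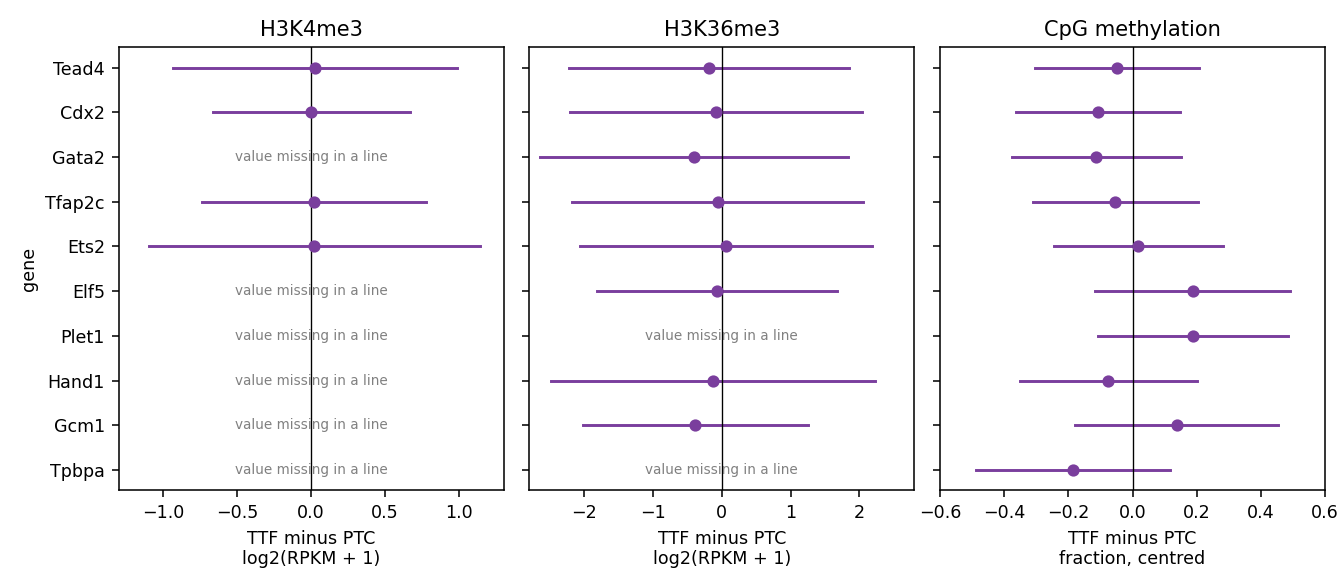
TTF minus PTC (x axis) for each trophoblast lineage gene (y axis) from limma, with 95% intervals, in log2(RPKM + 1) for H3K4me3 and H3K36me3 and in centred fraction for CpG methylation. Every interval crosses 0, from H3K36me3 at Gata2 (-0.40) to methylation at Plet1 (0.189), and genes without a value in some line are marked.

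A further 40 trophoblast genes were listed by role, and none of those tested passed limma with all lines in any assay. Only genes with a value in every line were tested. In methylation these were all but Synb, and in the histone marks the genes counted below as marked in all lines. No giant cell gene was tested in H3K4me3. At an unadjusted p under 0.05 there were 2 in methylation, Sox15 and Prl2c2 (a difference of 0.509, adjusted p = 0.624 in limma). None of the genes tested in the histone marks had one. Over all genes, 2392 of 50657 had an unadjusted p under 0.05 in methylation in limma. Trophoblast stem cell regulators and signals had H3K4me3 in all lines at 7 of 9 genes, Hippo pathway inputs to Tead4 at 6 of 8, spongiotrophoblast genes at 3 of 5 and labyrinth genes at 4 of 8. Epithelial genes of trophectoderm had it at 2 of 5 and giant cell genes at 0 of 5, with no H3K4me3 in any line. The background is the 30.8% of all genes given above. For protein-coding genes alone it is 53.1%. H3K36me3 was present in all lines at 7, 8, 2, 5, 4 and 1 of these genes in the same order, beside 38% of all genes and 62.8% of protein-coding genes.

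In methylation, 3 of 9 stem cell genes, 6 of 8 Hippo genes, 2 of 5 spongiotrophoblast genes, 1 of 5 epithelial genes and no labyrinth or giant cell gene stayed under 0.2 in every line, against 12.4% of all genes. The lowest means were at Flt1, a VEGF receptor (0.0112), and at Wwtr1, the Yap1 homologue (0.0188), and in the stem cell list at Fgfr2, the receptor for the FGF4 that sustains trophoblast stem cells (0.0123). The start used for Fgfr2 is chr7:133123350, the far end of a gene listed over chr7:130162451-133123350 on the minus strand. Other starts of Fgfr2 were not examined, so this value, counted among the 3 of 9, may not describe them. The highest means were at Lats2, a Hippo kinase (0.748), Tpbpb, a close paralogue of Tpbpa (0.661), Krt7, a trophoblast keratin (0.660), Prl3b1, a placental lactogen (0.657), Syna, a syncytin (0.596), and Esrrb, an orphan receptor of stem cells (0.581). Ctsq, Ovol2 and Cdh3 had the lowest means of the giant cell, labyrinth and epithelial lists, at 0.569, 0.175 and 0.0498. Synb had no methylation value.

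Sox15, a Sox factor of stem cells and giant cells, had a fraction of 0.0133 in PTC11 and 0.0174 in PTC12, and 0.00 in TTF1 and 0.833 in TTF4. Sox15 and Plet1 shared a TTF4 value at least 0.5 above every other line, as did 3.01% of all genes and 2 of 12 pluripotency genes, Zfp42 and Dppa4. Sox15 kept H3K4me3 in TTF4, at 3.24 RPKM, where Plet1, Zfp42 and Dppa4 had none. With 4 lines, Sox15 had a centred difference of 0.314 (SE 0.143, adjusted p = 1 in limma).

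Eomes, the T-box factor of trophoblast stem cells, had fractions of 0.0171 in PTC11 and 0.0490 in PTC12, and 0.0199 in TTF1 and 0.00922 in TTF4, with H3K4me3 in every line. At none of the listed genes with a value was PTC11 the lowest line by as much as at Elf5, and Prl2c2, a proliferin, came nearest, at 0.0667 in PTC11 and 0.507 in PTC12, the next lowest line. Prl2c2 belongs to a family of near-identical copies, so its reads may be shared and its value is uncertain. The other prolactin and cathepsin genes, and Tpbpa with Tpbpb, also have paralogues. Whether reads are shared among them was not measured, so their values may be uncertain too. The heat map of the other trophoblast genes shows each line.

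**Figure D5:**
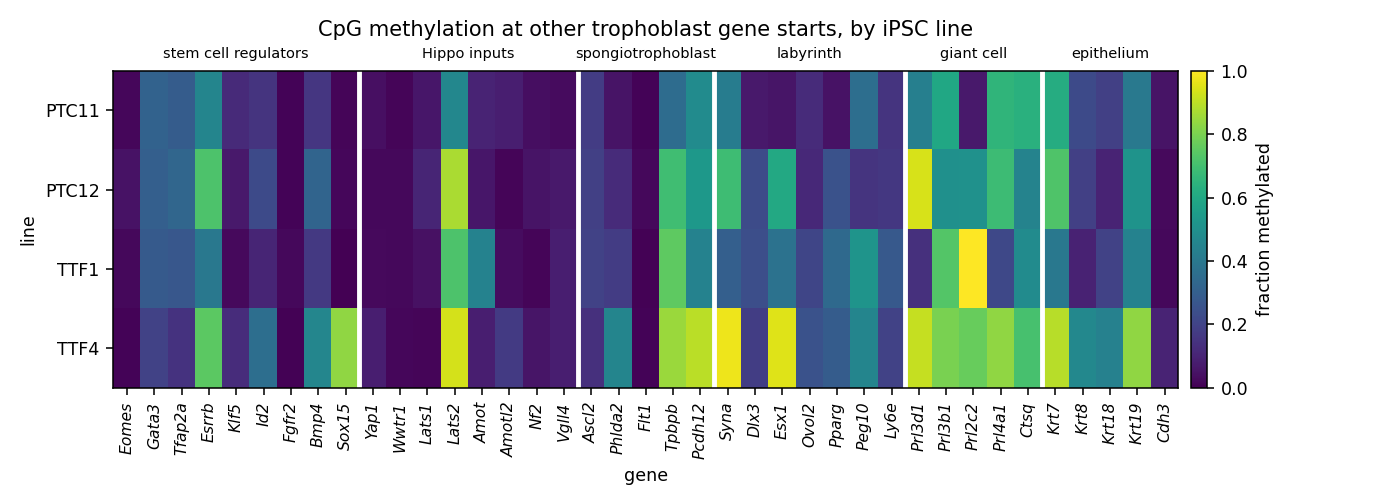
Fraction of methylated CpGs (colour, 0 to 1) at the starts of the other trophoblast genes with a value in every line (x axis, grouped by role) in PTC11, PTC12, TTF1 and TTF4 (y axis). The Hippo genes are dark apart from Lats2 (mean 0.748) and Amot in TTF1 (0.445), and Sox15 is bright in TTF4 alone (0.833).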

How the data were processed

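CpG methylation, H3K4me3, H3K36me3 and H3K27me3 were measured in iPSC lines PTC11, PTC12, TTF1 and TTF4 (16 libraries), grouped by the sample labels. The histone values are RPKM deposited per gene: per the labels and methods, the authors aligned reads to mm10 with Bowtie2 2.1.0, called peaks against input with MACS2 2.0.10, subtracted the input RPKM (bedtools 2.17.0) and averaged peaks from -2 to +3 kb of the TSS (H3K4me3) or over the gene body (H3K36me3). For methylation the authors deposited, per gene, the fraction of CpGs called methylated in nanopore reads (minimap2 2.17-r941, Nanopolish), over 300 bp windows sliding by 30 bp within 1000 bp of the TSS. Neither holds counts or coverage, so depth is unknown and no counting interval is given. Genes missing a peak in any line drop out of the tests, and peak calling therefore sets which genes can be compared.

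Genes measured in every line were fitted with limma 3.58.1 in R 4.3.3 (lmFit, eBayes with a trend) on log2(RPKM + 1), which understates changes of low genes, or on fractions centred on the mean of each line, with Benjamini-Hochberg adjustment over all genes. On simulated data with a tight spread between lines, the fit found 100% of the changed genes. With noise drawn independently for each gene from the variance that limma estimated, it found fewer. Shifts of a whole line over many genes were not simulated. For changes of 1 and 2 on the fitted scale the shares were 9% and 50% in H3K4me3, and 1% and 10% in H3K36me3. For methylation changes of 0.3 and 0.5 they were 2% and 14%. A gene that did not pass limma may therefore still differ by such amounts. H3K27me3 was not tested. All 10 trophoblast lineage genes are named, and other genes by the highest and lowest mean of each list. Sox15, Prl2c2, Eomes, Esx1, Amot, Zfp42, Dppa4, Krt19, Prl3d1, Cubn, Col3a1 and the flanking genes were chosen after their values were seen. Slc22a6, Dcn, Dab2, Tfap2a and Gata3 were chosen in the same way. A listed gene and a promoter sequence that the rule would have included are not reported here. Members and lists were chosen with earlier results of these data known. CpGs and sequences came from GRCm38, whose 21 chromosome names and lengths fitted the tables, and transcripts from GENCODE M21. Python 3.11.15, pandas 2.3.3 and matplotlib 3.10.9 were used. Alternatives varied the pseudocount, scale, normalization, centring, filters, variance trend, replicate block and the lines included.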

Additional observations from a re-analysis of the deposited data

How the results depend on the processing

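No trophoblast lineage gene passed limma in any alternative, and the smallest adjusted p was 0.15 (Plet1 without TTF1). The depth behind the values is unknown. Without a line, differences on the log2(RPKM + 1) scale turned sign for every gene but Gcm1: in H3K4me3 they ran from -0.48 to 0.53 at Tead4, -0.13 to 0.13 at Cdx2, -0.41 to 0.45 at Tfap2c and -0.38 to 0.43 at Ets2. In H3K36me3 they ran from -0.70 to 0.34 at Tead4, -0.57 to 0.40 at Cdx2, -1.13 to 0.33 at Gata2, -0.34 to 0.22 at Tfap2c, -0.53 to 0.65 at Ets2, -0.72 to 0.58 at Elf5 and -0.52 to 0.26 at Hand1. In methylation they ran from -0.109 to 0.0121 at Tead4, -0.263 to 0.0469 at Cdx2, -0.294 to 0.0669 at Gata2, -0.208 to 0.102 at Tfap2c, -0.0179 to 0.392 at Elf5 and -0.398 to 0.0279 at Tpbpa.

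Other settings turned small differences. In RPKM as deposited Tead4 (-0.0018) and Cdx2 (-0.0069) turned in H3K4me3 and Elf5 (0.0579) in H3K36me3. Quantile normalization gave -0.0756 at Cdx2, -0.0788 at Tfap2c and -0.0428 at Ets2 in H3K4me3, 0.0428 at Cdx2, 0.0217 at Tfap2c, 0.0646 at Elf5 and 0.0073 at Hand1 in H3K36me3, and 0.0373 at Tfap2c in methylation. Without centring, which moves the median of all genes to 0.0771, methylation differences were 0.0385 at Tead4, 0.0339 at Tfap2c and 0.0115 at Hand1, centring on the median gave -0.0048 at Ets2, and the logit scale 0.192 at Tfap2c and 0.226 at Tpbpa. The cause was not tested.

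Counts over all genes moved more. In H3K4me3 66 genes became 102 with a pseudocount of 0.1, 31 in RPKM, 467 with a value in at least 1 line of each origin, and 0 in limma after quantile normalization, with a mean of at least 1 RPKM or without the trend (318, 14 and 3 at an unadjusted p under 0.05). In H3K36me3 19 became 44, 11, 68, and 0 in the same 3 settings (502, 4 and 4). In methylation 2 became 52 with the median, 9 among protein-coding genes, 1 without the trend, 4 with at least 1 line, and 0 in limma without centring, after quantile normalization and on the logit scale (1006, 2438 and 1948). Without a line the counts ran from 59 to 108 in H3K4me3 (108 without TTF1), 1 to 31 in H3K36me3 (31 without PTC11, 8 without TTF1, 1 without TTF4) and 0 to 1020 in methylation (5 without PTC11, 0 without PTC12 with 1786 at an unadjusted p under 0.05, 1020 without TTF1, 227 without TTF4).

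With a replicate block pairing PTC11 with TTF1 and PTC12 with TTF4, as the study displayed them, the counts were 34, 167 and 24, and no trophoblast lineage gene passed. Deviations of PTC11 and TTF1 correlated across genes at -0.419 in H3K4me3, 0.47 in H3K36me3 and 0.115 in methylation, and with 2 pairs this does not settle whether the lines are paired.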

Other observations

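Tpbpa lies in a cluster of placenta-expressed genes on chromosome 13, and the genes around it differed in which line was lowest. Ctla2a, a cathepsin inhibitor gene 5359 bp away, had a fraction of 0.08 in PTC11 and 0.558 in PTC12, and 0.387 in TTF1 and 0.746 in TTF4, so its lowest line was PTC11. Ctsj, a placental cathepsin 63975 bp to the other side, had 0.792 in PTC11 and 0.734 in PTC12, and 0.485 in TTF1 and 0.634 in TTF4, with TTF1 lowest by a smaller gap. Tpbpb, the close paralogue of Tpbpa, had 0.352 in PTC11 and 0.691 in PTC12, and 0.750 in TTF1 and 0.848 in TTF4.

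Esx1, an X-linked homeobox gene of the labyrinth, had the lowest fraction in PTC11, at 0.0556, against 0.604 in PTC12, 0.377 in TTF1 and 0.950 in TTF4, with H3K4me3 in TTF1 alone at 2.89 RPKM. Amot, an X-linked Hippo scaffold, had 0.100 in PTC11 and 0.0619 in PTC12, and 0.445 in TTF1 and 0.0833 in TTF4.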
